A study of Mus musculus with 8 samples.

Results

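The 5 genes described here encode the actin isoforms of mouse striated muscle, smooth muscle and non-muscle cells: skeletal muscle alpha-actin (Acta1), cardiac muscle alpha-actin (Actc1), smooth muscle alpha-actin (Acta2), and the cytoplasmic beta- and gamma-actins (Actb and Actg1). They were chosen by gene symbol, as the actins of striated, smooth and non-muscle cells. All 5 were among the 13439 genes listed in the deposited table, and all 5 were among the 13120 genes that had at least 1 CPM (the reads of a gene scaled to the reads assigned to all genes of the library) in at least 2 libraries. A further muscle actin, gamma smooth muscle actin (Actg2), is given beside them.

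The RNA came from left ventricles of mice. Control littermates carried the Lin28afl/fl genotype (called floxed here), in which the gene of the RNA-binding protein Lin28a is flanked by recombination sites. The other mice carried the genotype labelled Lin28aCko (called cKO here), a cardiac-specific knockout of Lin28a. Mice of each genotype were operated on, either sham or with transverse aortic constriction (TAC), a surgical narrowing of the aorta that raises the pressure against which the left ventricle pumps. The TAC hearts were collected on day 5 after surgery, while the labels state no day of collection for sham hearts. Genotype and operation together give 4 groups, each with 2 libraries, numbered 1 and 2. The promoter that drives the recombinase, the age and the strain of the mice were not given in the sources used here. Genotypes are those of the labels, because Lin28a transcripts were not analysed here. The labels do not say that the 2 libraries of a group came from separate animals, and a p-value here measures no more than the spread between the samples, which may be technical. In cKO sham alone the 2 libraries differed in sex-linked transcripts, as given below.

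Actin monomers polymerise into filaments. In heart muscle the alpha-actins form the thin filaments of the sarcomere, on which myosin pulls, while beta- and gamma-actin form the cortical and stress-fibre networks of all cells. The fetal ventricle expresses skeletal and smooth muscle alpha-actin beside the cardiac form, the adult ventricle expresses mainly the cardiac form, and return of skeletal alpha-actin is a classical sign of pressure-overload hypertrophy. Smooth muscle alpha-actin marks vascular smooth muscle and myofibroblasts. Many actin genes are controlled by serum response factor (SRF), which binds a DNA element called the CArG box and whose coactivators of the MRTF family are held back by free actin monomers.

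The isoforms are close relatives at the protein level but not at the level of the reads, which is why the first 60 bases of each coding sequence are shown. They were read from the GENCODE transcripts (annotation release for GRCm38), 5′ to 3′ from the start codon. Capitals in Acta1 and Acta2 mark bases that differ from Actc1, and capitals in Actg1 mark bases that differ from Actb.
Acta1: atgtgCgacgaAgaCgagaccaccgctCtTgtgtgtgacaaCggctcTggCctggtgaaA
Actc1: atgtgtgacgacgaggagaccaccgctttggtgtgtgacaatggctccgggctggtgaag
Acta2: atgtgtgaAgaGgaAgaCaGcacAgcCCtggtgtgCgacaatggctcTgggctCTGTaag
Actb: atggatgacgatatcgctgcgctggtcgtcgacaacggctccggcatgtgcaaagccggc
Actg1: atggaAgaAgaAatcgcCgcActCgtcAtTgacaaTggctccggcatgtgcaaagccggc

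Over the whole coding sequence, Acta1 and Actc1 differed at 4 of 377 encoded residues but were identical at only 86.2% of coding bases. Acta1 and Acta2 differed at 8 of 377 residues and were identical at 85.4% of bases. Actb and Actg1 differed at 4 of 375 residues and were identical at 88.7% of bases. Acta1 and Actb, a muscle and a non-muscle form, differed at 26 of 377 residues. Most of the base differences thus left the encoded residue unchanged.

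Reads that fit more than 1 gene can still blur a level. Of all 50-base windows of the transcript, 2.22% in Acta1, 0% in Actc1 and 0.352% in Acta2 occurred without mismatch in a transcript of another gene. For Actb the share was 14.2%, of which Lrrc58 accounted for 9.57% of the windows. For Actg1 it was 56.7%, and processed copies such as Gm12715 (51.1% of windows) and Gm8399 (35.6%) accounted for most of it. Shared windows with other actin genes were 2.57% of Actb and 1.94% of Actg1. The Actg1 level is therefore the least certain of the 5, since the handling of reads with several matches was not given in the sources used here.

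All 5 genes lie on the minus strand of GRCm38 and on separate chromosomes. Acta1 (ENSMUSG00000031972.5) is on chromosome 8, 123891769 to 123894751. Actc1 (ENSMUSG00000068614.7) is on chromosome 2, 114047282 to 114053548. Acta2 (ENSMUSG00000035783.9) is on chromosome 19, 34241090 to 34255590. Actb (ENSMUSG00000029580.14) is on chromosome 5, 142903115 to 142906754, and Actg1 (ENSMUSG00000062825.15) is on chromosome 11, 120345690 to 120348542. The transcripts used for levels per length span 1446 bases in Acta1, 1473 in Actc1, 2035 in Acta2, 1920 in Actb and 1952 in Actg1.

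Because several of these genes rose together after TAC, their promoters were searched for the CArG box (10 bases, of which the inner 6 are A or T). The RefSeq promoter table for GRCm38.p6, which holds 250 bases before to 50 bases after an annotated start, matched 4 of the 5 genes, all but Actb. On both strands, 1.63% of 32851 promoters in that table held a perfect CArG box and 21.1% held one with at most 1 mismatch. Acta1, Actc1 and Actg1 each held a perfect match, and Acta2 held 2 with 1 mismatch. The stretches around these matches are shown 5′ to 3′ on the minus strand, with the CArG box in capitals. For Acta2 a short stretch around the match farther from the start is shown, which lies within the first GENCODE exon.
Acta1, chr8:123894804-123894883: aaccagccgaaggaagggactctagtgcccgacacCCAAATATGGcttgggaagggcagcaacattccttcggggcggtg
Actc1, chr2:114052888-114052957: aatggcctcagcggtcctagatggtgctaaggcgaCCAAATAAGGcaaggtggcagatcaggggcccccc
Actg1, chr11:120348543-120348620: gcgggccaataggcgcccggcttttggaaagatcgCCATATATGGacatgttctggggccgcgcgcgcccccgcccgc
Acta2, chr19:34255438-34255467: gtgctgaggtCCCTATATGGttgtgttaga

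The boxes began 73 bases before the table's start in Acta1, 47 in Actc1, 90 in Actg1 and 84 in Acta2. A TATA box (TATAAA, in 13.6% of promoters) began 7 bases before the start in Acta1 and 33 bases after it in Actc1. The MCAT element (CATTCC, in 14.7% of promoters), which binds TEAD factors, began 46 bases before the start in Acta1, and on the opposite strand 146 bases before it in Acta2. These matches are descriptions of the sequence, since no binding was measured.

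Library totals were between 10315902 and 21871570 assigned reads, and the fewest reads of any of the 5 genes in a library were 1524 (Acta2 in cKO sham 1, 148 CPM with an exact 95% binomial interval of 140 to 155 CPM). Intervals of this kind cover counting error only, because without molecular identifiers a read is not an independent molecule. A library with no read of a gene would allow up to 3 reads, or 0.137 to 0.291 CPM. All 11 cardiomyocyte markers, among them Myh6, Tnnt2 and Actn2, were listed, and their summed CPM was 46900 or more in each library. The library cKO sham 2 stood apart: it held 44.3 CPM of Xist, the RNA of the inactive X chromosome, where the remaining 7 held 0.173 CPM or less, and no read of the Y-linked Ddx3y. Its partner cKO sham 1 held 63.2 CPM of Ddx3y and no read of Xist, so these 2 libraries did not come from the same animal. By these transcripts sex was not balanced between the groups. Myl7, a light chain of atrial myosin, reached 133 CPM in the second floxed sham library, 65.0 in the second cKO sham library and 66.2 in the second cKO TAC library, and lay between 0.511 and 6.16 CPM elsewhere. Calls of the 5 actins that are lost without these libraries are given both ways. For the gene lists some of the lost calls are given, and cell type markers and correlations were not recomputed.

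Differences below are log2 differences of CPM + 1 with their standard error (SE) from 1 limma fit over all 8 libraries and all 13120 genes, and a gene passed at a Benjamini-Hochberg adjusted p under 0.05. Group values are means ± SD of 2 libraries in CPM. In ventricles taken as bulk tissue, fewer cells of a type and less RNA per cell cannot be told apart.

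**Figure D1:**
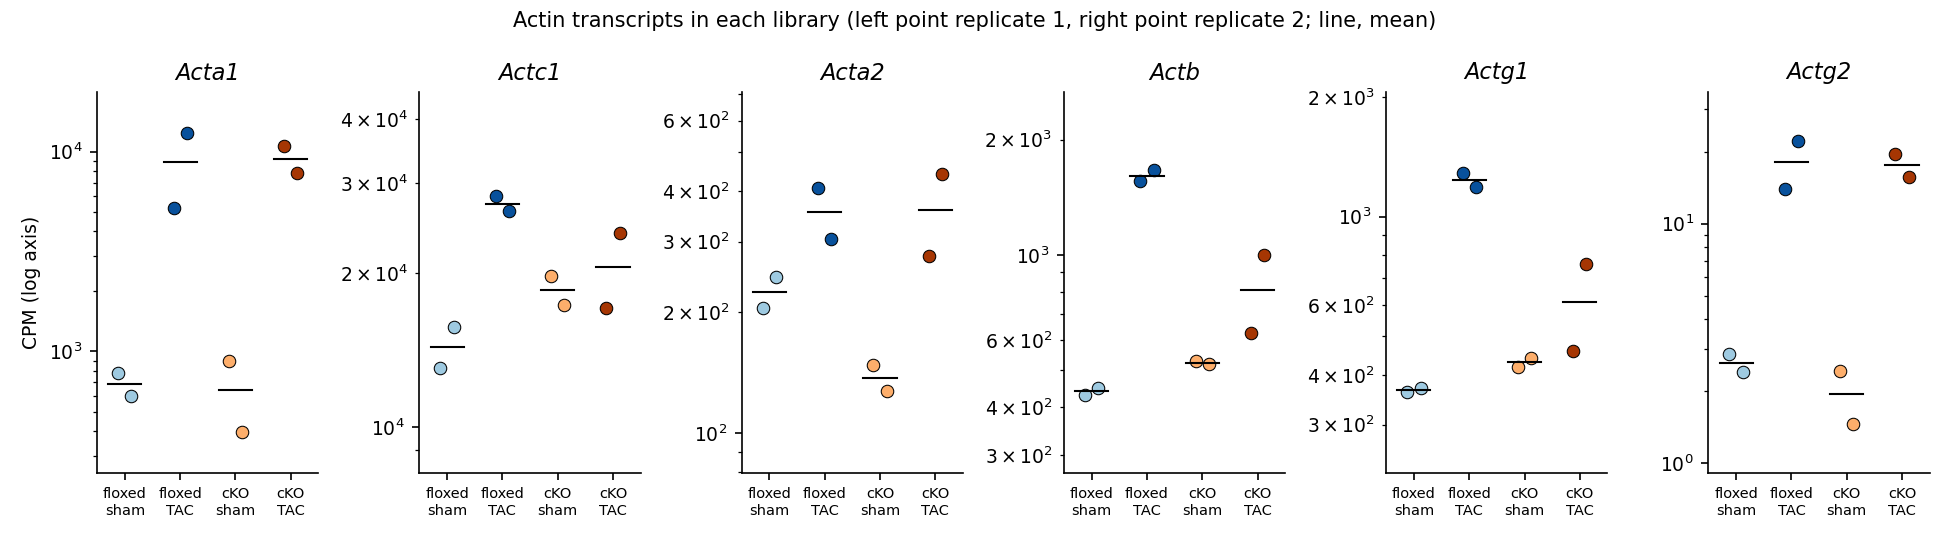
Level of each actin gene in CPM (log axis, with its own range in each panel) in the 4 groups. Each point is 1 library and each line a group mean. Acta1 and Actg2 were high in all 4 TAC libraries, and Actb and Actg1 were highest in the 2 floxed TAC libraries.

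Cardiac alpha-actin was the predominant isoform in every library. Per kilobase of transcript, Actc1 made up 89.4% and 91.7% of the 5 actins in floxed sham, 91.9% and 93.4% in cKO sham, 78.4% and 63.7% in floxed TAC, and 59.0% and 71.4% in cKO TAC. The share of Acta1 was 5.44% and 3.58% in floxed sham and 4.24% and 2.17% in cKO sham. After TAC it was 14.8% and 30.5% in floxed hearts and 37.4% and 23.7% in cKO hearts. All 4 TAC libraries thus had a larger Acta1 share and a smaller Actc1 share than all 4 sham libraries. The cytoplasmic forms Actb and Actg1 together held 2.85% to 6.01% of the total per kilobase. Acta2 had the lowest level per kilobase of the 5 in each library, at 62.7 to 217 CPM per kilobase.

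The mean level per kilobase in floxed sham hearts had the order Actc1 (9750 ± 1287 CPM per kilobase), Acta1 (477 ± 86.7), Actb (230 ± 6.70), Actg1 (188 ± 2.69) and Acta2 (111 ± 13.5). No neighbouring pair in that order overlapped between the 2 libraries of the group. In cKO sham hearts the order was the same, but Acta1 (273 and 617 CPM per kilobase) and Actb (270 and 275 CPM per kilobase) overlapped. After TAC the order was again the same in both genotypes, with an overlap of Actb (325 and 520 CPM per kilobase) and Actg1 (236 and 390 CPM per kilobase) in cKO hearts. The 5 genes together took 1.48% and 1.74% of assigned reads in floxed sham, 3.67% and 4.20% in floxed TAC, 2.17% and 1.88% in cKO sham, and 2.91% and 3.39% in cKO TAC. Both TAC groups lay above both sham groups in this total.

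**Figure D2:**
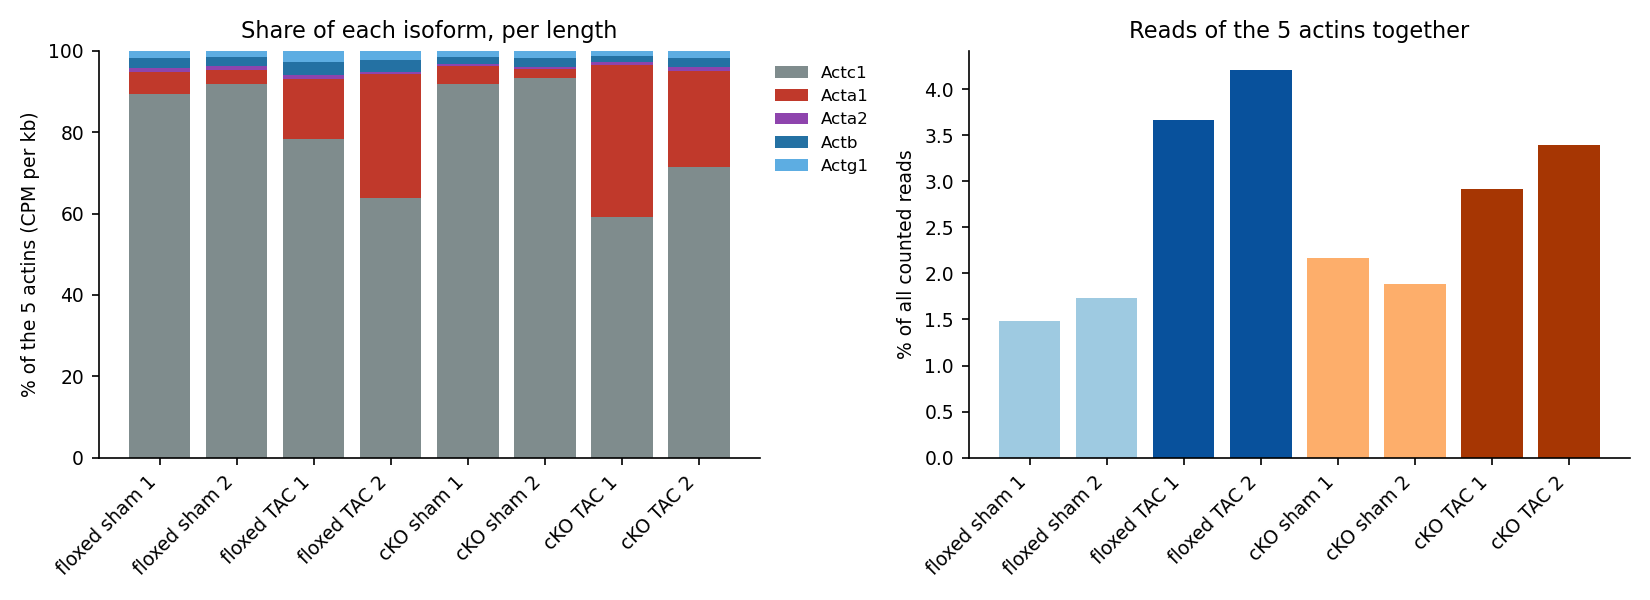
Left, the share of each isoform in the sum of the 5 actins, in percent of CPM per kilobase, for the 8 libraries. Right, the reads of the 5 genes as a percentage of all assigned reads. The Acta1 share was between 2.17% and 5.44% in sham libraries and between 14.8% and 37.4% in TAC libraries.

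In floxed hearts, with Lin28a intact, TAC was compared with sham for the response of the actin genes to pressure overload. All 5 passed the test and were higher after TAC, while 27.9% of all genes tested were called higher, 14.5% lower and 42.4% in either direction. The 2 TAC libraries lay above the 2 sham libraries for each of the 5 genes, a separation that 75.6% of all genes showed in this comparison. The median over all genes was a log2 difference of 0.14.

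Skeletal alpha-actin, Acta1, was at 778 and 601 CPM in the floxed sham libraries and at 5235 and 12442 CPM in the floxed TAC libraries. The lower TAC library was several times above the higher sham library, and the 2 TAC libraries differed from each other by 2.38-fold. The means were 689 ± 125 and 8838 ± 5096 CPM, a log2 difference of 3.56 ± 0.43 (adjusted p = 0.000199), or 11.8-fold with a 95% interval of 6.05 to 23.0. By size, this difference was above that of 99.6% of genes. It was 4.18 without floxed TAC 1 and 2.93 without floxed TAC 2, and passed in both fits.

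Cardiac alpha-actin, Actc1, was at 13022 and 15703 CPM in floxed sham and at 28204 and 26450 CPM in floxed TAC. The libraries of each group lay close together and the groups were apart. The log2 difference was 0.93 ± 0.23 (adjusted p = 0.00883), or 1.91-fold. It did not pass without the floxed sham 1 library (0.80, adjusted p = 0.0932) or without the 3 libraries in which Myl7 exceeded 10 CPM (1.07, adjusted p = 0.0505).

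Smooth muscle alpha-actin, Acta2, was at 206 and 244 CPM in floxed sham and at 407 and 304 CPM in floxed TAC. Its log2 difference of 0.65 ± 0.22 (adjusted p = 0.0366) was the smallest of the 5. It was not past the threshold without floxed sham 1 (adjusted p = 0.202), floxed sham 2 (0.0687) or floxed TAC 1 (0.232), nor with scaling by median ratios (0.0753) or by edgeR on the recovered reads (0.0684).

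The cytoplasmic actins had larger differences than Actc1 and Acta2, which was not tested as a contrast between genes. Actb was at 432 and 450 CPM in floxed sham and at 1556 and 1664 CPM in floxed TAC. The libraries agreed closely within each group. The log2 difference of Actb was 1.87 ± 0.18 (adjusted p = 7.43e-05), or 3.65-fold. Actg1 was at 363 and 370 CPM in floxed sham and at 1286 and 1187 CPM in floxed TAC, again with no overlap. Its log2 difference was 1.75 ± 0.19 (adjusted p = 0.000132), or 3.36-fold.

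Markers of some other cell types moved in the same libraries. The summed CPM of 9 macrophage markers (of 10 on the list) was 381 and 378 in floxed sham and 2217 and 1947 in floxed TAC. That of 8 activated fibroblast markers was 584 and 710 in floxed sham and 10557 and 13621 in floxed TAC. All 9 and all 8 passed as higher, none was at 0 throughout, and the summed CPM of 11 cardiomyocyte markers went from 101192 and 87769 to 46900 and 47536. The summed CPM of 6 fibroblast markers was 2830 and 2692 in floxed sham and 1455 and 2077 in floxed TAC. Of these 6, 3 passed as higher and 1 as lower, and of 6 endothelial markers 0 passed. The part of these shifts in the actin results was not tested.

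The same response was measured in cKO hearts, which lacked Lin28a in heart muscle per the labels. Acta1 and Acta2 passed as higher, and Actc1, Actb and Actg1 did not pass. Of all genes tested, 2.53% were called in either direction, 2.09% higher and 0.442% lower. The libraries of the 2 groups did not overlap for 4 of the 5 genes (all but Actc1), as was true of 42.8% of all genes.

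Acta1 was at 892 and 395 CPM in cKO sham and at 10643 and 7785 CPM in cKO TAC. Both TAC libraries were far above both sham libraries, of which cKO sham 2 was the lower. The means were 644 ± 352 and 9214 ± 2021 CPM, and the log2 difference was 3.94 ± 0.43 (adjusted p = 0.0031), or 15.3-fold with a 95% interval of 7.85 to 29.8. Without cKO sham 2 it was 3.35 (adjusted p = 0.0321), and without cKO sham 1 it was 4.52 (adjusted p = 0.00501). Without the 3 libraries in which Myl7 exceeded 10 CPM it was 3.57 and did not pass. That fit leaves 1 library in each group but floxed TAC, so its spread comes from the 2 floxed TAC libraries alone.

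Acta2 was at 148 and 128 CPM in cKO sham and at 276 and 442 CPM in cKO TAC. Its log2 difference was 1.34 ± 0.22 (adjusted p = 0.0148), or 2.53-fold. The call was lost without cKO sham 1 (adjusted p = 0.0518), without cKO sham 2 (log2 difference 1.23, adjusted p = 0.101) and without the 3 libraries with Myl7 above 10 CPM (0.90, adjusted p = 0.187). Fitted on the 4 cKO libraries alone, its adjusted p was 0.0734.

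Actc1 was at 19699 and 17322 CPM in cKO sham and at 17109 and 23928 CPM in cKO TAC. The lower TAC library lay below both sham libraries and the other lay above them. The log2 difference was 0.13 ± 0.23 (adjusted p = 0.835), with a 95% interval of -0.38 to 0.64 that does not exclude a rise of up to 1.56-fold. Its sign turned without cKO TAC 2 (-0.11) and without the 3 libraries with Myl7 above 10 CPM (-0.20).

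Actb was at 527 and 519 CPM in cKO sham and at 624 and 998 CPM in cKO TAC. The 2 TAC libraries were unequal, cKO TAC 2 being the higher, and both exceeded the sham libraries. The log2 difference of 0.59 ± 0.18 did not pass by limma (adjusted p = 0.143), whereas DESeq2 on the recovered reads called it (0.60, adjusted p = 0.0157). Actg1, at 420 and 442 CPM in cKO sham and 460 and 762 CPM in cKO TAC, showed the same uneven pair, and its log2 difference of 0.46 ± 0.19 did not pass (adjusted p = 0.280). Without cKO TAC 1, the lower of the pair, both passed (adjusted p = 0.00441 for Actb and 0.00665 for Actg1).

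The same 2 libraries were uneven for macrophage and activated fibroblast markers. Summed macrophage markers were at 402 and 306 CPM in cKO sham and at 682 and 945 CPM in cKO TAC. Summed activated fibroblast markers were at 655 and 778 CPM in cKO sham and at 2145 and 4315 CPM in cKO TAC. Of these markers 8 of 9 and 7 of 8 passed as higher. The higher value of each TAC pair was in cKO TAC 2, as for Actb and Actg1, while Acta1 was higher in cKO TAC 1. Summed fibroblast markers were at 2439 and 2416 CPM in cKO TAC, and 0 of 6 passed. The part of these markers in the actin values was not tested.

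**Figure D3:**
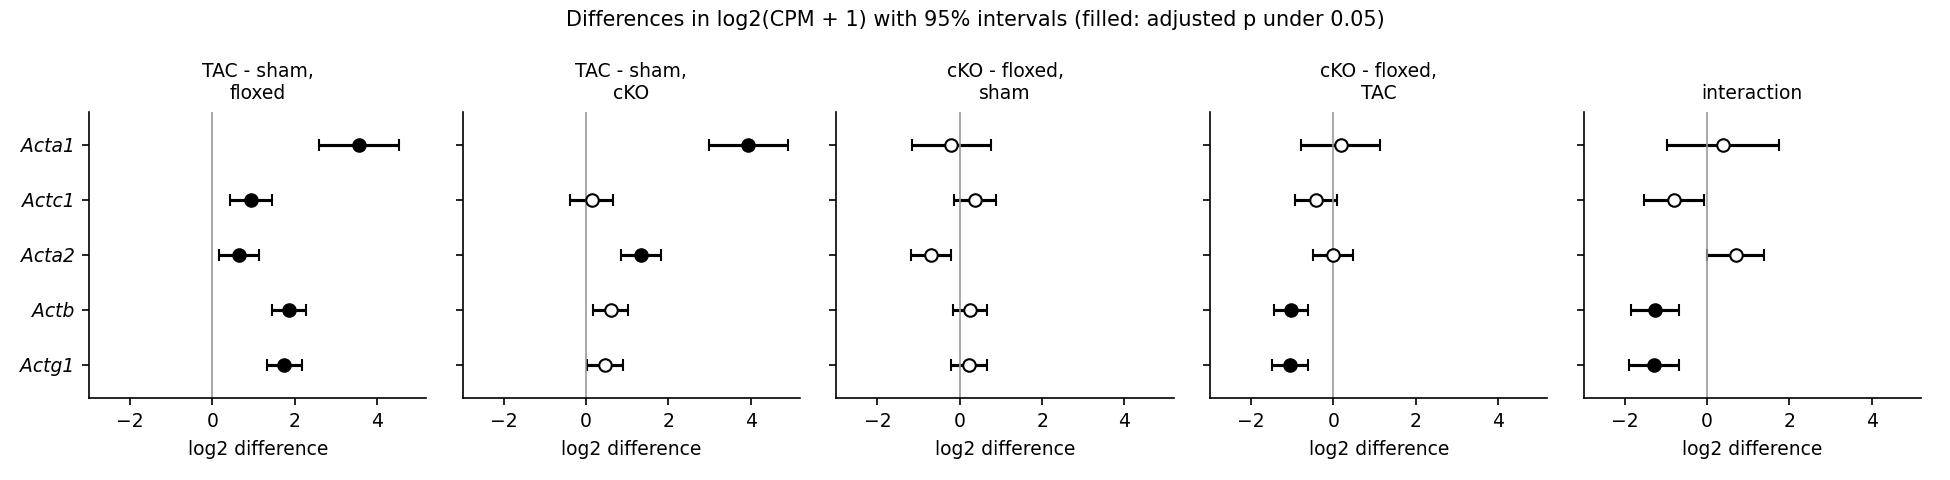
Log2 differences of the 5 genes with 95% intervals in the 4 comparisons and the interaction (the response to TAC of cKO hearts less that of floxed hearts). Filled points passed at an adjusted p under 0.05. Acta1 rose in both genotypes, and Actb and Actg1 lay below 0 in the TAC genotype comparison and in the interaction.

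The genotypes were compared in sham hearts to show the actin levels without overload. None of the 5 genes passed by limma in cKO against floxed sham hearts, a comparison in which 0.0534% of genes, 7 in all, were called (0.0457% higher and 0.00762% lower) and 1013 genes had an unadjusted p under 0.05. edgeR and DESeq2 on the recovered reads called none of the 5 either. Actc1, Actb and Actg1 were higher in both cKO sham libraries than in both floxed sham libraries and Acta2 was lower, by log2 differences of 0.37 ± 0.23, 0.25 ± 0.18, 0.23 ± 0.19 and -0.70 ± 0.22. Such a separation of the 2 groups was seen for 41.9% of all genes. Acta2 was the single member with an unadjusted p under 0.05 (0.0094, adjusted p = 0.520). Acta1 overlapped between the groups, with a log2 difference of -0.20 ± 0.43, which was 0.38 without cKO sham 2 and 0.20 without the 3 libraries with Myl7 above 10 CPM.

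In TAC hearts the genotypes differed for the cytoplasmic actins. Actb was at 1610 ± 76.4 CPM in floxed TAC and at 811 ± 265 CPM in cKO TAC, a log2 difference of -1.03 ± 0.18 (adjusted p = 0.0049), or 0.491-fold. Actg1 was at 1236 ± 69.5 and 611 ± 214 CPM, a log2 difference of -1.06 ± 0.19 (adjusted p = 0.00532), or 0.480-fold. In this comparison 16.5% of all genes were called lower, 8.39% higher and 24.9% in either direction, beside which the 2 of 5 actins have to be read. Both calls held in each of the 17 alternative analyses, in which the adjusted p reached 0.0393 for Actb and 0.0401 for Actg1. All 9 macrophage markers and 7 of 8 activated fibroblast markers were also called lower in cKO TAC hearts. Of 11 cardiomyocyte markers 8 were called higher there, of 6 fibroblast markers 1 higher and 1 lower, and of 6 endothelial markers 0. The part of these markers in the actin difference was not tested.

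The muscle alpha-actins did not pass between the genotypes after TAC. The log2 difference of Acta1 was 0.17 ± 0.43 (adjusted p = 0.805), and its 95% interval of -0.79 to 1.14 spans lower and higher levels in cKO hearts. It was -0.45 without floxed TAC 1 and -0.05 without cKO TAC 1. For Acta2 it was -0.01 ± 0.22 (adjusted p = 0.973, 95% interval -0.50 to 0.47), with a sign that turned in 5 of the 17 alternatives. For Actc1 it was -0.43 ± 0.23 (adjusted p = 0.199), although both cKO TAC libraries (17109 and 23928 CPM) lay below both floxed TAC libraries (28204 and 26450 CPM). The groups did not overlap for Actc1, Actb and Actg1, against 63.8% of all genes.

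The interaction tests whether the TAC response itself differed between the genotypes. Actb and Actg1 passed, with a smaller rise in cKO hearts, in a comparison where 9.18% of genes were called lower, 4.93% higher and 14.1% in either direction. The value was -1.27 ± 0.26 (adjusted p = 0.0162) for Actb and -1.29 ± 0.27 (adjusted p = 0.0175) for Actg1. The median over all genes was -0.13. Across the alternatives the direction held, at -1.65 to -0.94 for Actb and -1.66 to -0.93 for Actg1. The call was lost for both without floxed sham 1 (adjusted p = 0.0767 and 0.0782), floxed sham 2 (0.0568 and 0.0617) or floxed TAC 2 (0.0570 and 0.0514), and for Actg1 also without floxed TAC 1 (0.0642) or cKO sham 2 (0.0503).

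For the 3 alpha-actins the interaction did not pass. It was 0.38 ± 0.61 for Acta1 (adjusted p = 0.714, 95% interval -0.98 to 1.74), -0.80 ± 0.32 for Actc1 (adjusted p = 0.122) and 0.69 ± 0.31 for Acta2 (adjusted p = 0.157). The interval for Acta1 spans both a smaller and a larger response in cKO hearts, and its value was -0.25 without floxed TAC 1 and -0.21 without cKO sham 2. By DESeq2 on the recovered reads the interactions of Actc1 (adjusted p = 0.0307) and Acta2 (adjusted p = 0.0283) passed, with opposite signs.

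Ratios within a library do not depend on the scaling between libraries. The ratio of Acta1 to Actc1 reads was 0.0597 and 0.0383 in floxed sham and 0.0453 and 0.0228 in cKO sham. It was 0.186 and 0.470 in floxed TAC and 0.622 and 0.325 in cKO TAC. All 4 TAC libraries exceeded all 4 sham libraries, whatever the genotype. The mean log2 ratio was -1.46 ± 0.75 (SD, n = 4) in TAC and -4.67 ± 0.58 (SD, n = 4) in sham libraries, a difference of 3.22 with an exact two-sided permutation p = 0.0286, the smallest that 4 against 4 allows (0.0571 adjusted over the 2 ratios tested).

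The ratio of Actb to Actg1 reads hardly varied. It was 1.19 and 1.21 in floxed sham, 1.21 and 1.40 in floxed TAC, 1.26 and 1.17 in cKO sham, and 1.36 and 1.31 in cKO TAC. The difference of the mean log2 ratio between TAC and sham was 0.13 (exact two-sided permutation p = 0.0857, also after adjustment over the 2 ratios). In 2-against-2 comparisons no such test can pass.

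The other muscle actin, Actg2, normally a product of visceral smooth muscle, was rare but followed Acta1. It was at 2.85 and 2.40 CPM in floxed sham, 13.9 and 22.2 in floxed TAC, 2.42 and 1.46 in cKO sham, and 19.5 and 15.7 in cKO TAC, from 22 to 477 reads. As for Acta1, floxed TAC 2 had the highest value and cKO sham 2 the lowest. Its log2 difference was 2.36 ± 0.27 in floxed hearts (adjusted p = 0.000145) and 2.67 ± 0.27 in cKO hearts (adjusted p = 0.0026), and the interaction was 0.31 ± 0.38 (adjusted p = 0.617). Over the 8 libraries the Pearson correlation of log2(CPM + 1) between Acta1 and Actg2 was 0.996, the highest of any gene with Acta1. Actg2 amounted to 0.178% to 0.400% of the Acta1 CPM. No 50-base window of the Actg2 transcript occurred in another gene, and the longest run of coding bases shared with Acta1 was 29.

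**Figure D4:**
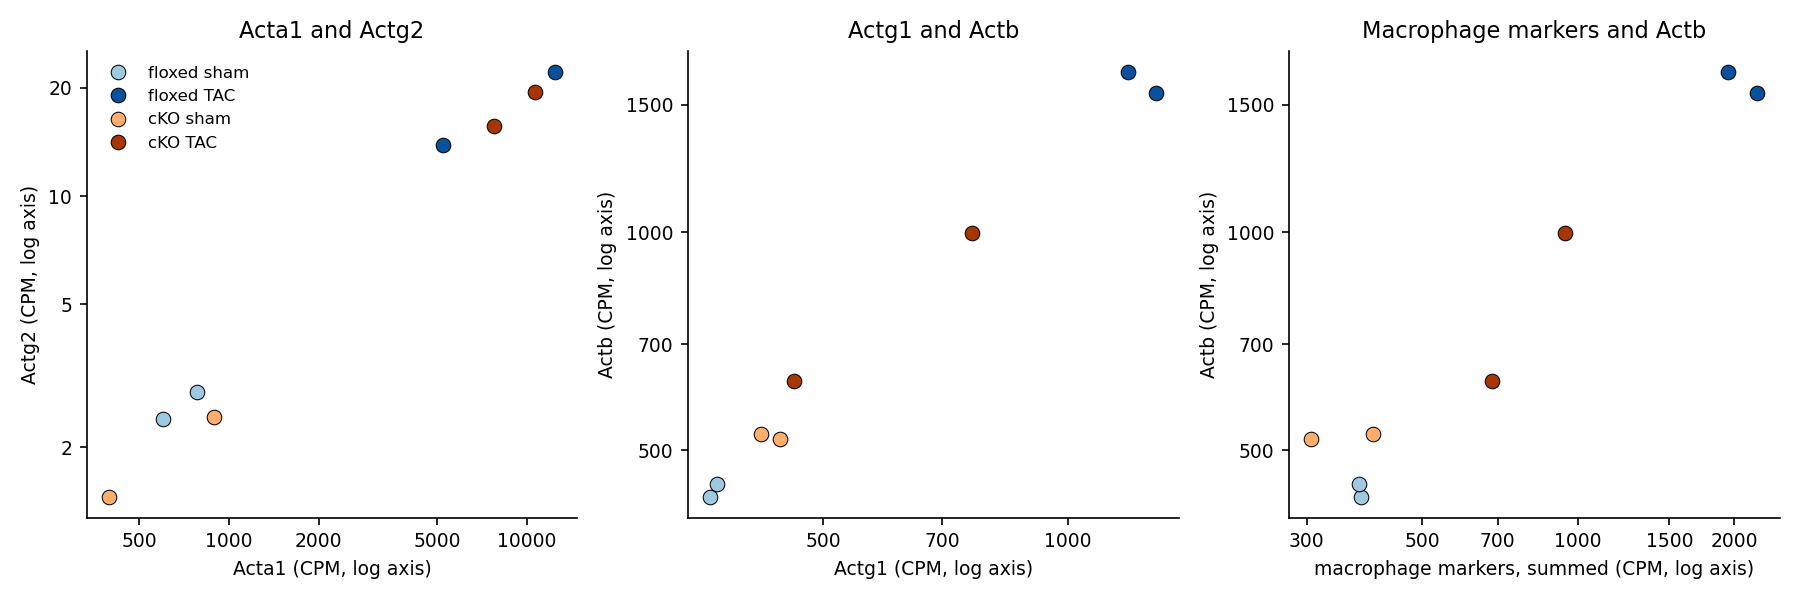
Levels in the 8 libraries, all in CPM on log axes. Left, Actg2 (1.46 to 22.2 CPM) against Acta1, middle, Actb against Actg1, and right, Actb against the summed CPM of 9 macrophage markers. In the left panel the TAC libraries of both genotypes lie together, and in the middle and right panels the cKO TAC libraries lie between the sham and the floxed TAC libraries.

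The 5 genes fell into different patterns over the 8 libraries, described by Pearson r of log2(CPM + 1) with no test, since the libraries share groups. Actb and Actg1 had r = 0.994 with each other. Actc1 was nearer to the cytoplasmic forms (r = 0.933 with Actb and 0.932 with Actg1) than to Acta1 (r = 0.662) or Acta2 (r = 0.598). Acta1 and Acta2 had r = 0.788. The number of genes with r above 0.9 shows how common each pattern was, at 2067 genes (15.8%) for Actb, 2154 (16.4%) for Actg1, 806 (6.14%) for Actc1, 128 (0.976%) for Acta1 and 62 (0.473%) for Acta2.

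The genes most like each member were taken by this measure. After Actg2, those closest to Acta1 were Adamtsl2, a secreted matrix protein (r = 0.988), and Fcna (r = 0.984). For Actc1 they were Elmo1 (r = 0.995), Nup54, a nuclear pore protein (r = 0.991), and Bax, a pro-apoptotic protein (r = 0.990). For Acta2 they were Phf11a (r = 0.976), Lyst, a regulator of lysosomes (r = 0.972), and Tmem180 (r = 0.970). For Actb they were Ppic, Csk and Loxl1 (each r = 0.998), a cyclophilin, a kinase that restrains Src and a collagen cross-linking enzyme. For Actg1 they were Hexa, Dpysl3 and Runx1 (each r = 0.997).

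Fast skeletal muscle and smooth muscle markers were set beside Acta1 and Acta2. Summed CPM of the 7 fast skeletal markers listed (of 10; Tnnc2, Actn3 and Pvalb were not listed) was 443 and 327 in floxed sham, 205 and 269 in floxed TAC, 240.0 and 288 in cKO sham, and 626 and 453 in cKO TAC. In floxed hearts this sum was lower after TAC while Acta1 was higher, and in cKO hearts both were higher. Single markers went both ways. Of all genes, 27.9% were called higher and 14.5% lower in floxed hearts, and 2.09% higher and 0.442% lower in cKO hearts. In floxed hearts the fast troponin T gene Tnnt3 passed as higher (log2 difference 1.69, adjusted p = 0.000994) and 4 of the 7, Myh1, Myh2, Myh4 and Tnni2, passed as lower. In cKO hearts 1 of the 7 passed, the light chain Myl1, which was higher (2.21, adjusted p = 0.000824). The part of these transcripts in the Acta1 values was not tested.

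The 13 smooth muscle and pericyte markers summed to 3466 and 3249 CPM in floxed sham, 7499 and 8148 in floxed TAC, 3591 and 3639 in cKO sham, and 4718 and 5279 in cKO TAC. In floxed hearts 4 passed as higher and 3 as lower, where 27.9% of all genes were called higher and 14.5% lower. The median log2 difference of the list was 0.21, against 0.14 for all genes. In cKO hearts 1 passed in each direction, where 2.09% of all genes were called higher and 0.442% lower. The median was again 0.21, against 0.02 for all genes. The rise of the sum in floxed hearts was thus not shared by the list as a whole. Tagln, at 185 and 149 CPM in floxed TAC, and Myh11, at 24.6 and 46.5 CPM there, were small parts of that sum. Which markers made up its rise was not tested. Smooth muscle myosin Myh11, the motor of contractile smooth muscle, had a log2 difference of -0.0033 ± 0.32 in floxed hearts (adjusted p = 0.995) and 0.55 in cKO hearts (adjusted p = 0.438). Tagln and Cnn1, actin-binding proteins of smooth muscle and myofibroblasts, rose in floxed hearts by log2 differences of 2.44 (adjusted p = 9.56e-05) and 4.04 (adjusted p = 0.000125). Their interactions were -1.50 (adjusted p = 0.026) and -2.49 (adjusted p = 0.0303), whereas that of Acta2 was 0.69 and did not pass.

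The genes that control and handle actin were described by lists, whose counts stand beside the shares of all genes tested. Those shares were 27.9% higher and 14.5% lower in floxed hearts, 2.09% higher and 0.442% lower in cKO hearts, and 4.93% higher and 9.18% lower in the interaction. The medians of all genes were 0.14, 0.02 and -0.13. In cKO hearts 2142 of the 13120 genes tested had an unadjusted p under 0.05 by limma. Without the 3 libraries with Myl7 above 10 CPM, 0 genes of the first 6 lists passed in cKO hearts, and 1 of the last list did.

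Of 8 genes of SRF and its coactivators, 2 were higher and 2 lower after TAC in floxed hearts (median 0.12), shares close to those of all genes for the higher calls. In cKO hearts 0 passed by limma or DESeq2, with 1 at an unadjusted p under 0.05. Abra, a muscle activator of MRTF signalling, was at a mean of 32.8 CPM in floxed sham, 93.6 in floxed TAC, 52.2 in cKO sham and 49.5 in cKO TAC. Its rise in floxed hearts was 1.49 ± 0.16 (adjusted p = 0.000103) and its interaction -1.57 (adjusted p = 0.00552). Mkl1, which encodes MRTF-A, rose by 1.06 (adjusted p = 0.00193), with an interaction of -1.15 (adjusted p = 0.0259). Fhl2, a LIM protein that represses SRF targets, fell by 0.76 on the log2 scale in floxed hearts (adjusted p = 0.00326), with an interaction of 0.76 (adjusted p = 0.0455).

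Among monomer-binding and turnover genes, 11 of 17 were higher after TAC and 1 lower in floxed hearts (median 0.74), against 27.9% and 14.5% of all genes, in cKO hearts 0 passed by limma (6 at an unadjusted p under 0.05, and 2 higher and 1 lower by DESeq2), and the interaction was called lower for 7 and higher for 1. Profilin Pfn1, which feeds monomers to growing filaments, went from 197 to 452 CPM in floxed hearts (log2 difference 1.20, adjusted p = 6.15e-05) and from 209 to 279 CPM in cKO hearts. The thymosins Tmsb4x and Tmsb10, which sequester monomers, rose in floxed hearts by 1.30 (adjusted p = 6.34e-05) and 1.80 (adjusted p = 0.00013). Interactions were -0.79 for Pfn1, -1.14 for Tmsb4x and -1.40 for Tmsb10, and all 3 passed.

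Of 20 nucleation and capping genes tested (of 22), 11 were higher and 3 lower in floxed hearts (median 0.56), 2 were higher in cKO hearts by limma and 2 by DESeq2, and 9 had a lower and 1 a higher interaction. The 2 called by limma in cKO hearts were Capg, a macrophage-rich capping protein (log2 difference 1.05, adjusted p = 0.0329), and the Arp2/3 subunit Arpc1b (0.71, adjusted p = 0.0411). In floxed hearts they rose by 2.83 and 1.92. The capping subunit Capza1 rose by 1.51 in floxed hearts (adjusted p = 7.12e-05), with an interaction of -1.38 (adjusted p = 0.00658).

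Of 17 bundling and membrane-linking genes, 13 were higher and 1 lower in floxed hearts (median 1.16), against 27.9% and 14.5% of all genes. In cKO hearts 1 was higher by limma and 4 by DESeq2, and 9 had a lower interaction, against 9.18% of all genes. Non-muscle alpha-actinin Actn1 went from 35.2 to 208 CPM in floxed hearts (log2 difference 2.53, adjusted p = 1.47e-05) and from 35.1 to 59.0 CPM in cKO hearts (0.71, adjusted p = 0.0542). The focal adhesion protein Zyx rose in both genotypes, by 1.59 (adjusted p = 1.75e-05) and 0.74 (adjusted p = 0.00998). L-plastin Lcp1, a bundling protein of leukocytes, rose by 2.27 in floxed hearts (adjusted p = 0.0001).

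Of 13 sarcomeric thin filament genes, 4 were higher and 4 lower in floxed hearts (median -0.07), where 27.9% of all genes were called higher and 14.5% lower. In cKO hearts 2 were higher by limma and 4 by DESeq2. Beta-tropomyosin Tpm2, a partner of actin on the filament, rose in floxed hearts by 1.54 (adjusted p = 3.02e-05) and in cKO hearts by 1.05 (adjusted p = 0.0047). The actin-binding Xirp1 rose in floxed hearts by 1.06 (adjusted p = 0.000191). Cardiac troponin I, Tnni3, fell from 6667 to 2782 CPM in floxed hearts (log2 difference -1.27, adjusted p = 0.000249) and went from 6835 to 5120 CPM in cKO hearts, where it did not pass (adjusted p = 0.228).

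Among 16 folding and modification genes tested (of 17), 6 were higher in floxed hearts (median 0.30), not far from the 27.9% of all genes. In cKO hearts 0 passed by limma or DESeq2 (2 at an unadjusted p under 0.05), and 4 had a lower interaction. The genes higher in floxed hearts included Cct8, Cct5 and Cct3, subunits of the chaperonin that folds actin. Their log2 differences there were 0.91 (adjusted p = 0.000186), 0.60 (adjusted p = 0.000855) and 0.61 (adjusted p = 0.00389). Among 8 other actins and actin-related proteins tested (of 11), 3 were higher and 1 lower in floxed hearts (median 0.16), and Actg2 was the 1 called in cKO hearts by limma, as 1 was by DESeq2. The dynactin subunits Actr1b and Actr1a rose in floxed hearts by 0.64 (adjusted p = 0.00111) and 0.45 (adjusted p = 0.00387).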

How the data were processed

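Left ventricular mRNA of 8 mouse libraries was measured in 4 groups of 2. The deposited values are CPM per gene, which the authors made with Bowtie2 2.2.6 and HTSeq on mm10, per the submitters' processing notes, which also name DESeq2. The annotation and counting settings were not given in the sources used here. Values were whole multiples of 1 read in 100% of cases (within 0.02 reads), so reads were recovered, and 0.153% to 0.201% of reads belonged to genes not listed.

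The main test was limma 3.58.1 (trended variance, R 4.3.3) on log2(CPM + 1), with 1 coefficient per group over all libraries, adjusted over 13120 genes. A simulation with few changed genes, split evenly between higher and lower, was run as a check of the code. In these data many genes were called in floxed hearts and more of them higher. The simulation therefore does not test the scaling between libraries. Alternatives were scaling by median ratios, a pseudocount of 0.5, no filter, limma-voom, edgeR 4.0.16 and DESeq2 1.42.0 on recovered reads, the compared groups alone, a replicate block, libraries with Myl7 above 10 CPM left out, and each library left out. Named genes were the 5 actins, the 3 genes of each list with the smallest adjusted p in floxed hearts, and the 3 most correlated with each actin. Actg2 was named as the remaining muscle actin, and single cell type markers (such as Myh11, Tagln, Cnn1, Tnnt3, Myl1, Myl7 and Xist) after their values were seen. Members and lists were chosen with earlier results of these data known. Sequences came from GENCODE and RefSeq tables of GRCm38, with residues counted from translated coding sequences.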

Additional observations from a re-analysis of the deposited data

Results flagged for a closer look

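The TAC response differed between the genotypes, by the interaction in limma at an adjusted p under 0.05, for the 2 cytoplasmic actins and for other genes whose response is given above. For the actins the interaction was -1.27 (Actb) and -1.29 (Actg1) on the log2 scale. It was below 0, a smaller rise in cKO hearts, for the SRF coactivator genes Abra (-1.57) and Mkl1 (-1.15) and for the monomer-binding genes Pfn1 (-0.79), Tmsb4x (-1.14) and Tmsb10 (-1.40). The same sign was found for Capg (-1.79), Arpc1b (-1.20) and Capza1 (-1.38) among the nucleation and capping genes and for Actn1 (-1.82), Zyx (-0.85) and Lcp1 (-1.29) among the bundling and linking genes. The chaperonin subunits Cct8 (-0.79) and Cct5 (-0.64) also had it. Among cell type markers it was found for Tagln (-1.50) and Cnn1 (-2.49). The sign was above 0 for Fhl2 (0.76) and Tnni3 (0.85), both of which fell in floxed hearts, and for the fast light chain Myl1 (2.04), which rose in cKO hearts. Not all of these interactions passed without the libraries with Myl7 above 10 CPM, a fit with a single library in each group but floxed TAC. Those lost included Fhl2, Tnni3, and Abra or Mkl1 or both. Of all genes, 14.1% were called in this comparison with all libraries. The list genes named here were picked for a small adjusted p in floxed hearts. That response is part of the interaction, so their interactions are not independent of the choice. Tagln, Cnn1 and Myl1 were picked after their values were seen. Summed activated fibroblast and macrophage markers were highest in the same floxed TAC libraries, and their part in these differences was not tested.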

How the results depend on the processing

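Of 420 recomputed differences of the 5 actin genes, 391 kept their side of the threshold, 20 no longer passed and 9 newly passed. The sign held in 407 and changed in 13, of which 0 passed in either fit. In some settings the difference could not change, and only its spread or adjusted p could. These were no filter, the compared groups alone, the replicate block, and leaving out a library of a group not compared. The counts of settings here and above include them. The rises of Acta1, Actb and Actg1 in floxed hearts and the lower Actb and Actg1 of cKO TAC hearts passed in 17 of 17 settings, and the rise of Acta1 in cKO hearts in 16 of 17. Leaving out 1 library at a time, actin genes past the threshold numbered 3 to 5 in floxed hearts (5 with all libraries), 1 to 4 in cKO hearts (2), 0 throughout between sham genotypes, 2 to 3 between TAC genotypes (2) and 0 to 3 in the interaction (2). Over all genes the same left-out fits gave 3618 to 5919, 71 to 615, 1 to 15, 1400 to 3622 and 254 to 2919 genes, against 5562, 332, 7, 3263 and 1851. Floxed sham 1 gave the lowest floxed and interaction counts, cKO sham 2 the lowest and cKO TAC 1 the highest cKO count. In cKO hearts limma-voom called 129 genes, DESeq2 688 with 3 actins, the 4 cKO libraries alone 45 genes with 1 actin, and the fit without libraries with Myl7 above 10 CPM 53 genes with 0 actins. Between sham genotypes limma-voom called 1 gene and DESeq2 49. In the interaction DESeq2 called 4 actins, 1 higher and 3 lower. The number of all genes that DESeq2 called there is not given here, so this count cannot be set beside a share.

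Scaling by median ratios moved the median of all genes in floxed hearts from 0.14 to 0.00, where the 5 actins kept their sign and 4 passed. Under it the Acta2 difference between TAC genotypes went from -0.01 to 0.09. It changed the split of floxed calls from 3655 higher and 1907 lower to 2978 and 2598, that between TAC genotypes from 1101 and 2162 to 1421 and 1751, and that of the interaction from 647 and 1204 to 843 and 916. Leaving out the libraries with Myl7 above 10 CPM was planned for the actins and applied to the lists after seeing the data. Without these libraries the median log2 differences of the turnover, nucleation and bundling genes in floxed hearts were 0.68, 0.57 and 1.21, beside 0.14 for all genes. In cKO hearts the nucleation calls went from 2 to 0, the bundling call from 1 to 0 and the thin filament calls from 2 to 0, so that Capg, Arpc1b, Zyx and Tpm2 no longer passed. SRF interaction calls went from 1 higher and 2 lower to 0 and 1. Differences in the ratio of Acta1 to Actc1 were 2.96 to 3.54 with 1 library left out. Deviations of same-numbered libraries from their group means correlated at -0.105 to 0.0812 over all genes. Whether the replicate numbers pair libraries for a few genes was not tested. Myl7 exceeded 10 CPM only in libraries numbered 2, though not in floxed TAC 2. The replicate block gave 5573, 309, 8, 3289 and 1873 genes, with as many actins called in each comparison as without it. Crossing the floxed TAC numbers, also chosen after seeing the data, gave 5596 genes and 5 actins. With 2 libraries a group the rise of Acta2 in floxed hearts passed in 12 of 17 settings, and the cause of each change above was not tested.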
